A study of Homo sapiens with 4 samples.

Results

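Most myosins are motor proteins that move along actin filaments by hydrolysing ATP. The nonmuscle class II myosins assemble into bipolar filaments that contract the cell cortex and the cleavage furrow, whereas the unconventional myosins carry cargo, extend the cell edge or tether membranes to actin. The genes described here are 6 members of this family that had captured RNA in at least 1 pull-down. They were MYH9 and MYH10, which encode the heavy chains of nonmuscle myosin IIA and IIB, and the unconventional myosin genes MYO6, MYO10, MYO18A and MYO18B. They were chosen because a peak overlapped their annotated gene span, with strand ignored. They are 6 of 847 protein-coding genes with a peak in any list, and 6 of 53 annotated genes of the MYH, MYO and MYL families. The choice used the number, place, strength and overlap of the peaks, so those values describe these libraries and are not tests.

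RD is a human cell line of embryonal rhabdomyosarcoma, a tumour of the skeletal muscle lineage. Its cells were lysed and RNA was recovered with biotinylated antisense oligonucleotides. An even and an odd probe set were both directed at ZNF609 exon 2, the exon that forms circ-ZNF609, and a LacZ probe set against a bacterial mRNA served as the control. The 3 pull-downs came from the same cell line, each was 1 library with its own peak list, and no genotype or drug differed between them. The fourth of the 4 samples, total cell lysate, was not analysed here. With 1 library for each probe set no value has a replicate error and no difference between probe sets has a replicate check.

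The even list held 502 peaks, the odd list 542 and the LacZ list 722, with 482418, 279415 and 219401 reads in peaks. The strength of a peak is given as reads per bin, which is the number of reads that fell in 170 bases, averaged where adjacent bins were joined. Its median was 293 for even, 221.5 for odd and 115 for LacZ peaks. These values are not scaled to library size, so levels are compared within a list and are only set side by side between lists. Of 12 skeletal muscle markers, DES, TNNT1 and TNNT2 had a peak, all with both ZNF609 probe sets, and only TNNT2 of these had LacZ peaks. MYOD1, MYOG and the other 7 markers had none. Of 12 markers of other cell types, KRT18 had an odd peak and TUBB3 a LacZ peak. The shares with a peak were 25% of the muscle markers and 16.7% of the others, beside 4.22% of all annotated protein-coding genes. DES and TNNT1 were in each ZNF609 list but missing from the LacZ list, as were 4.96% of protein-coding genes with a peak. Whether these shares differ was not tested. A peak is captured RNA and not a measure of expression, so a marker without a peak is not shown to be silent.

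Myosin RNA was captured with all 3 probe sets, the LacZ control included. The 6 genes held 7 of the even peaks (1.39%, exact 95% interval 0.562 to 2.85), 11 of the odd (2.03%, 1.02 to 3.6) and 16 of the LacZ peaks (2.22%, 1.27 to 3.57). The intervals are Clopper-Pearson intervals that cover counting error only. They treat peaks as independent, which peaks of 1 gene are not, so they are no test between probe sets. The reads in these peaks numbered 3617 for even, 3718 for odd and 3723 for LacZ probes, or 0.75%, 1.33% and 1.7% of the reads in peaks. MYH9 alone gave 10 of the 16 LacZ peaks. Without MYH9, a comparison added once the values were known, the counts were 6 even, 7 odd and 6 LacZ peaks.

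The members differed in which probe sets recovered them. Even peaks lay in 5 of the 6 genes, where 36.5% of all genes with a peak had one. Odd peaks lay in 4 of the 6, where the share of all genes with a peak was 38.7%. LacZ peaks also lay in 4 of the 6, beside 52.5% of all genes with a peak. MYH10 was the member that both ZNF609 probe sets recovered and the LacZ probes did not, a class that held 4.96% of genes with a peak. Its place in this class rests on even peaks that also lay in LOC102724262, a long noncoding RNA gene on the opposite strand. Those peaks cannot be assigned to MYH10 alone. MYH9 and MYO10 had peaks with all 3 probe sets (5.31% of genes). MYO18B had even and LacZ peaks (5.19%), MYO18A odd and LacZ peaks (6.97%), and MYO6 an even peak alone (21%). Since members were picked by having a peak, nothing about the family follows from these shares.

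Merging overlapping peaks gave 27 places in the 6 genes. A place in MYO10 was the 1 shared by even and odd that lacked a LacZ peak. A LacZ peak was part of 4 places that also had an even or odd peak, 3 in MYH9 and 1 in MYO10, and such places made up 123 of the 1549 places of the whole series (7.94%). LacZ alone accounted for 12 of the 27 places, odd alone for 6 and even alone for 4. Over the whole series LacZ alone made up 38.7% of 1549 places, odd alone 25.8%, even alone 24.1% and even with odd 3.49%.

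MYH9 encodes the heavy chain of nonmuscle myosin IIA, which drives cortical contraction and cell retraction. It is gene ID 4627, on the minus strand of chromosome 22 at 36281280 to 36387967 (GRCh38), a span of 106688 bases. It had 1 even, 4 odd and 10 LacZ peaks, and no other protein-coding gene had as many LacZ peaks. By reads in LacZ peaks it ranked 4 of 445 genes, with 3017 reads. In the odd list it ranked 29 of 328 genes with 2108 reads, and in the even list 218 of 309 genes with 314 reads. By reads in peaks, MYH9 was thus among the leading genes of the control list and in the lower part of the genes of the even list. All 15 peaks lay in a window of 16660 bases, 15.6% of the span, towards the downstream end of the gene.

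The place common to all 3 lists was chr22:36294151-36294320, a single bin 93647 bases downstream of the gene start. It had 314 reads per bin with even probes (rank 231 of 502, deposited p-value 0.00868), 484 with odd probes (rank 71 of 542, 0.00117) and 182 with LacZ probes (rank 177 of 722, 0.000715). It was the strongest MYH9 place of the even and odd lists and the fifth of 10 in the LacZ list. The even probes thus gave no MYH9 place of their own.

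The odd and LacZ lists shared 2 further MYH9 places, and their order of strength differed between the lists. At chr22:36293301-36293810 the odd peak had 365.7 reads per bin (rank 125) and the LacZ peak, over the same bases, had 70 (rank 538). At chr22:36289051-36289220 the odd peak had 162 reads per bin (rank 393). It lay within a LacZ peak from 36288711 to 36289220 with 294 reads per bin (rank 73), the strongest LacZ peak of the gene. The first of these places was the second strongest of the 4 odd peaks and the weakest of the 10 LacZ peaks.

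The fourth odd peak, at chr22:36300781-36300950 with 365 reads per bin, overlapped no other peak. The 10 LacZ peaks had 70 to 294 reads per bin. Those found with LacZ probes alone were at 36284971 to 36285480 (77), 36285651 to 36285820 (125), 36295681 to 36295850 (157), 36296701 to 36297040 (201.5), 36298911 to 36299080 (260) and 36301461 to 36301630 (72), besides the peak with 247.5 described next. They lie on either side of the places shared with odd probes.

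**Figure D1:**
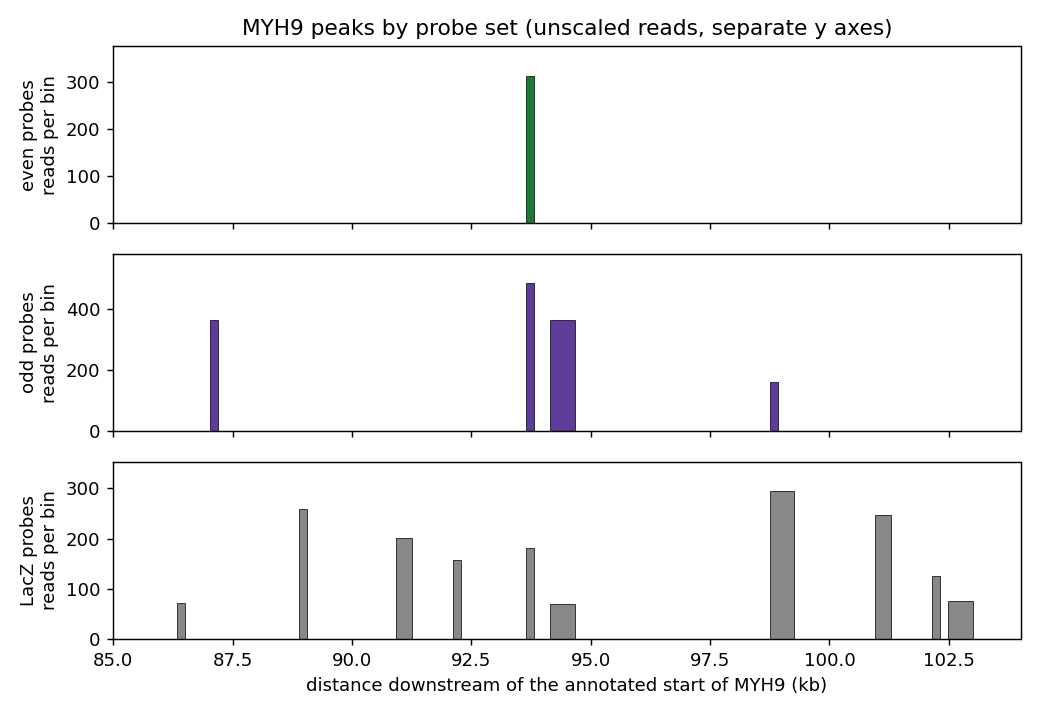
Reads per bin of 170 bases (y, unscaled, a separate scale for each probe set) of every MYH9 peak against the distance of the peak from the annotated gene start in kb (x); a bar is as wide as its peak. The even peak sits at a place where odd and LacZ also have peaks, and the 10 LacZ peaks are spread over the whole window.

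The LacZ peak at chr22:36286671-36287010, with 247.5 reads per bin (rank 103), also covered MIR6819, a microRNA gene inside MYH9 on the same strand. Its RefSeq sequences (GRCh38.p14, minus strand, chr22:36286847-36286907 for the hairpin) are shown because it is the one stretch under a myosin peak for which the sequence tables used here hold a sequence. Capitals mark the seed, bases 2 to 8 of each mature arm.
MIR6819 hairpin: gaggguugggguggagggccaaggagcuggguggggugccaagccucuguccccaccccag
hsa-miR-6819-5p: uUGGGGUGgagggccaaggagc
hsa-miR-6819-3p: aAGCCUCUguccccaccccag
The hairpin is 61 bases long and the peak 340, so the peak is wider than the microRNA gene and the reads of MYH9 and MIR6819 were not separated. This place had neither an even nor an odd peak.

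MYH10 encodes the heavy chain of nonmuscle myosin IIB, which is known for sustained tension and for cell division in several tissues. It is gene ID 4628, on the minus strand of chromosome 17 at 8474212 to 8630725. The even peaks were chr17:8512411-8512750 with 203.5 reads per bin (rank 352 of 502) and chr17:8513431-8513600 with 226 (rank 315). The odd peaks were chr17:8500851-8501020 with 232 reads per bin (rank 254 of 542), chr17:8504591-8504760 with 235 (rank 245) and chr17:8509691-8510030 with 119 (rank 505). The LacZ list had 0 MYH10 peaks.

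Even and odd probes did not recover the same MYH10 places. The nearest even and odd peaks were 2380 bases apart and the farthest 12410. Both even peaks and the weakest odd peak also lay in LOC102724262, a long noncoding RNA gene on the opposite strand at 8504904 to 8513834. Every peak is listed on the plus strand and strand was not used, so MYH10 and LOC102724262 reads cannot be told apart there. The other 2 odd peaks lay in MYH10 alone. Recovery of MYH10 with even probes thus rests on peaks that cannot be assigned to it alone. The deposited p-values of the 5 peaks ran from 0.00311 to 0.00837, so 0 of them passed a limit of 0.001.

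MYO10 encodes myosin X, the motor found at the tips of filopodia. It is gene ID 4651, on the minus strand of chromosome 5 at 16661907 to 16936288, and all 5 of its peaks lay within 680 bases. At chr5:16702501-16702670 the same bin was a peak in each list, with 146 reads per bin for even, 123 for odd and 38 for LacZ probes. The even peak ranked 449 of 502, the odd peak 495 of 542 and the LacZ peak 721 of 722. These are weak peaks in each list, at 0.498, 0.555 and 0.33 times the median of the list.

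The LacZ call of MYO10 was at the limit of the list. Its deposited p-value was 0.00997, and 38 reads per bin (exact 95% Poisson interval 26.89 to 52.16, counting error only) was the lowest value in the LacZ list. Bins that missed the limit of 0.01 are not in the lists, so values just outside it are not known. The second MYO10 place had an even peak at chr5:16702841-16703010 with 149 reads per bin (rank 444) and an odd peak at chr5:16702841-16703180 with 178.5 (rank 354). It had no LacZ peak, and it was the only such place in the 6 genes. Without the LacZ peaks under the lowest 5% of reads per bin (a choice made with the values known), MYO10 joined MYH10 among genes recovered by both ZNF609 probe sets and missing from the LacZ list.

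MYO18A encodes myosin XVIIIA, a PDZ domain myosin known for linking the Golgi to actin. It is gene ID 399687, on the minus strand of chromosome 17 at 29071122 to 29180398. The odd peaks had 213 reads per bin at chr17:29087001-29087170 (rank 284 of 542) and 212 at chr17:29089891-29090060 (rank 286). The 4 LacZ peaks had 40 to 75.5 reads per bin and ranks 507 to 713 of 722. No MYO18A peak was in the even list.

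The odd and LacZ peaks of MYO18A lay apart along the gene. Both odd peaks were nearer the downstream end than every LacZ peak, with 680 bases between the nearest pair. The LacZ peaks began at 29090741, 29092271, 29092781 and 29097201. The promoter table gives 3 starts for MYO18A, and the most downstream, at 29140389, lay 43019 bases upstream of the nearest peak. The peaks thus lay downstream of all 3 starts.

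**Figure D2:**
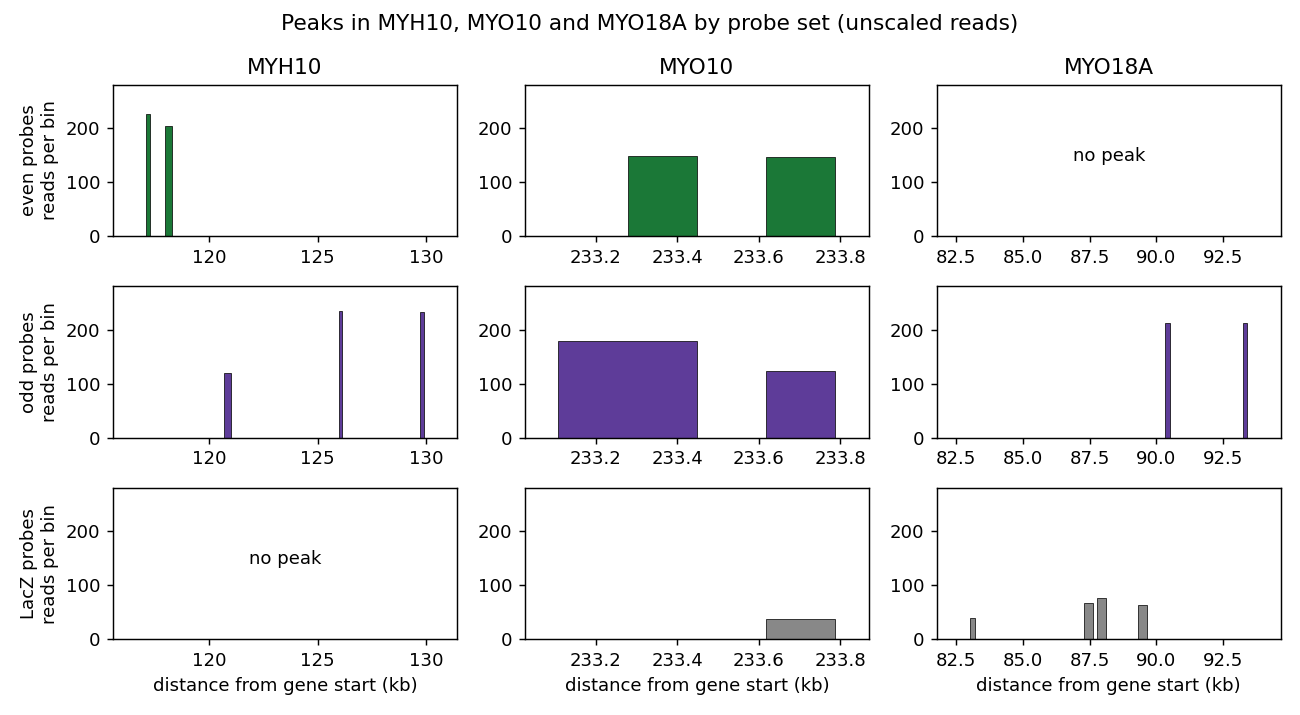
Reads per bin (y, unscaled, 1 scale for all panels) of the peaks of MYH10, MYO10 and MYO18A (columns) with even, odd and LacZ probes (rows) against the distance from the annotated gene start in kb (x, a scale for each gene). Even and odd peaks coincide in MYO10 and lie apart in MYH10, and the LacZ peaks of MYO18A lie nearer the gene start than its odd peaks.

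MYO18B encodes myosin XVIIIB, an unconventional myosin of striated muscle needed for sarcomere assembly in mouse and zebrafish. It is gene ID 84700, on chromosome 22 at 25742188 to 26063847, and its strand was not in the tables used here. The even peak at chr22:25969711-25970050 had 969 reads per bin and ranked 36 of 502, with a deposited p-value of 9.41e-05. The LacZ peak at chr22:25768941-25769450 had 72.67 reads per bin and ranked 521 of 722. The peaks were 200260 bases apart and the odd list had none.

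The even peak of MYO18B was the strongest myosin peak of the even list, at 3.31 times its median. It was also the 1 myosin peak over bins whose deposited score held the fixed value of exactly 0.01, a value found under 57 even, 22 odd and 169 LacZ peaks. Without such peaks MYO18B kept its LacZ peak alone. MYO6 encodes myosin VI, the motor that walks towards the minus end of actin. It is gene ID 4646, on the plus strand of chromosome 6 at 75749239 to 75919537. Its 1 peak, in the even list, was chr6:75890041-75890380 with 218.5 reads per bin (rank 325 of 502) and a p-value of 0.00148.

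In strength, most myosin peaks outside MYH9 were below the middle of their list. Above it by rank, in the upper part, were 1 of 6 even, 2 of 7 odd and 0 of 6 LacZ peaks. By reads per bin, MYH9 went the other way, with 1 of 1 even, 3 of 4 odd and 7 of 10 LacZ peaks in the upper part. Ranked by deposited p-value, this contrast was less clear. The even MYH9 peak then ranked 474 of 502, and the odd MYH9 peaks 66, 154, 513 and 536 of 542. LacZ peaks of MYH9 ranked from 113 to 572 of 722. Those of the other genes ranked 243, 337, 344 and 685 (MYO18A), 480 (MYO18B) and 721 (MYO10). MYH9 was set apart with the values known. Over all 6 genes, even myosin peaks had a median of 218.5 reads per bin, beside 293 over the even list. Of these, 2 of 7 were in the upper part by rank. Odd myosin peaks had a median of 213, beside 221.5, with 5 of 11 in the upper part. LacZ myosin peaks had a median of 76.25, beside 115, with 7 of 16 in the upper part, all 7 of them in MYH9. The LacZ peaks of the other genes ranked from 507 to 721 of 722. For scale, ZNF609, the gene the probes target, had its strongest peak at rank 77 with even probes and 109 with odd probes. CKAP5, a microtubule polymerase gene named in the series title, was at 163 and 204. MYO18B with even probes (36) and MYH9 with odd probes (71) stood above both in this ranking by reads per bin. By deposited p-value the order was another. The even peak of MYO18B had 9.41e-05, beside 3.6e-05 for ZNF609 and 7.27e-05 for CKAP5. The odd peak of MYH9 at rank 71 had 0.00117, beside 1.67e-05 for ZNF609 and 0.000777 for CKAP5. Another odd MYH9 peak, at rank 125 by reads per bin, had 0.000203.

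**Figure D3:**
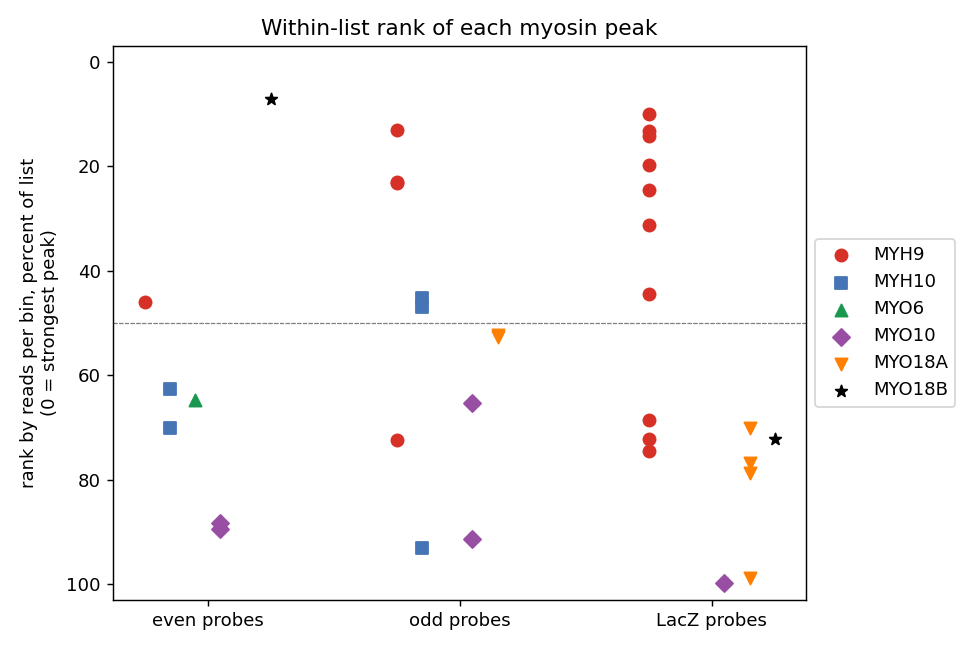
Rank by reads per bin as a percent of the list (y, 0 is the strongest peak, the dashed line is the middle of the list) of each myosin peak, by probe set (x) and gene (symbol). The LacZ peaks in the upper part all belong to MYH9, and the even peak of MYO18B is the highest point.

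Along the 5 members with a known strand, the peaks lay towards the downstream end in each list. Of their 32 peaks, 31 had their middle in the last 25% of the span. The lowest was an even MYH10 peak at 74.9% of the span from the gene start and the highest a LacZ MYH9 peak at 96.3%. Each of the 5 genes had all its peaks past the midpoint, where 59% of genes with a peak and a known strand did, and 60.6% of those with a span at least as long as that of MYH9. The medians were 83.9% with even, 85% with odd and 85.4% with LacZ probes. In other genes of such spans they were 55.5%, 80% and 74%. The upper quartiles of those other genes were 84.9%, 90.7% and 90.6%, so peaks in the last 25% of the span were common there too. In the 5 members the LacZ peaks share this position with the even and odd peaks. MYO18B, with no known strand, had its LacZ peak 26753 and its even peak 227523 bases from the lower end of its span. That span is 321660 bases, so the 2 peaks lay on opposite sides of its midpoint. On either strand, 1 of them was upstream of the midpoint. Exon positions were not used here, so the place in the mature RNA is not known, and peaks of 1 gene are not independent.

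**Figure D4:**
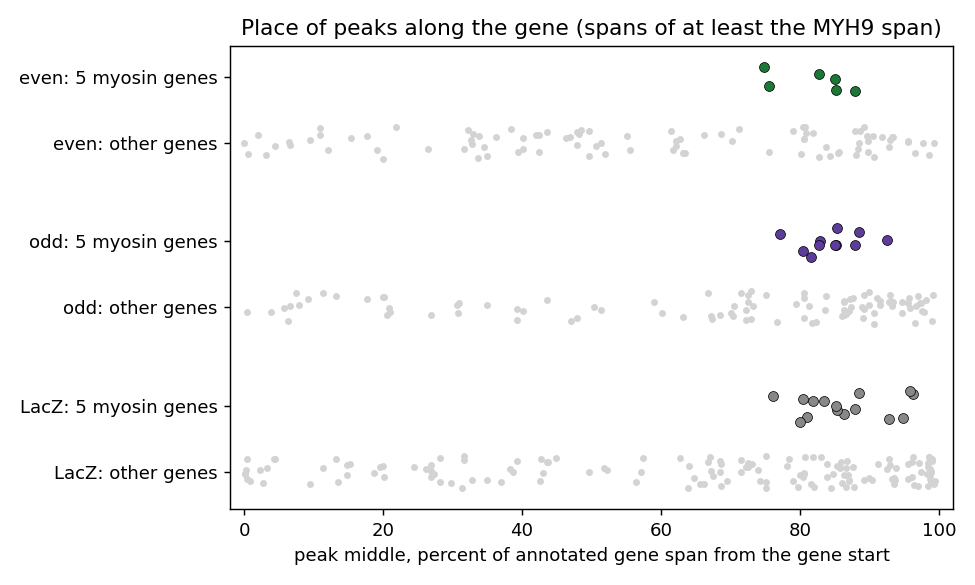
Middle of each peak as a percent of the annotated gene span from the gene start (x), for the 5 myosin genes with a known strand (outlined points) and for other protein-coding genes with a span of at least that of MYH9 (grey points), by probe set; vertical scatter within a row has no meaning. Peaks of the 5 myosin genes lie between 74.9% and 96.3%, and peaks of the other genes run over the whole span. MYO18B, with no known strand, is left out.

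The other 47 genes of the MYH, MYO and MYL families had 0 peaks. Peaks lay in 2 of 15 MYH, 4 of 25 MYO and 0 of 13 MYL genes, the last of which encode the light chains. The family total of 6 in 53 is 11.3%, beside 4.22% of all annotated protein-coding genes and 7.69% of those with a span at least as long as that of MYH9. The members were taken from this family for having a peak, so this share is a description.

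Of 56 regulators and partners of these myosins, 10 had a peak: 4 genes with even probes, 4 with odd probes and 8 with LacZ probes. Over all protein-coding genes 4.22% had a peak, and of those 36.5% had an even, 38.7% an odd and 52.5% a LacZ peak. CALD1, which encodes the actin and myosin binding protein caldesmon, was recovered with both ZNF609 probe sets and was missing from the LacZ list. Its stronger even peak had 857.5 reads per bin (rank 53 of 502) and its odd peak, elsewhere in the gene, 126 (rank 484 of 542). LIMCH1, which encodes an activator of nonmuscle myosin II, had the same peak with even probes, at 153 reads per bin, and with odd probes, at 156. Its LacZ peak, with 115.5, lay elsewhere in the gene.

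ENAH, which encodes an actin filament elongation factor, had overlapping peaks in all 3 lists. It had 456 reads per bin with even (rank 147), 433.7 with odd (rank 88) and 743 with LacZ probes (rank 10 of 722). FMNL3, a formin gene, had odd peaks alone, the stronger with 253.5 reads per bin. TAX1BP1, which encodes an autophagy receptor that binds myosin VI, had even and LacZ peaks at different places, with 163 and 236 reads per bin.

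TPM1 and TPM2, which encode tropomyosins, had LacZ peaks alone, and TPM2 ranked 76 of 722 with 287 reads per bin. TPM3 and TPM4, the other tropomyosin genes listed, had no peak. TPM1 had 2 peaks, the stronger with 142 reads per bin. VASP, a filament elongation factor gene, also had a LacZ peak alone, with 64 reads per bin. The kinase and phosphatase genes that set myosin light chain phosphorylation, among them ROCK1, ROCK2, MYLK and PPP1R12A, had 0 peaks. Only 4.22% of all protein-coding genes had a peak, so 0 in so few genes is no result about them. Of 17 genes of actins and actin-binding proteins, 3 had a peak (17.6%, beside the same 4.22%), each in 1 list. ACTC1, the cardiac actin gene, had an even peak with 279 reads per bin. ACTN4 had an odd peak with 127 and ACTN1 a LacZ peak with 119; both encode alpha-actinins, which crosslink actin filaments.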

How the data were processed

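Libraries of total RNA were made with Ovation kits, per the labels' protocols. Whether the kits used here mark strand is not known, and every deposited peak is listed on the plus strand. The submitters' processing notes name the aligner STAR 2.5.2b, Picard, SAMtools, bedtools, Trimmomatic and bcl2fastq 2.0.2, with the build GRCh38. Settings and duplicate handling are not given in those notes. Piranha is named in the deposited lists' names. The signal deposited by the authors in column 5 was read from the values as reads per 170-base bin, or the mean over joined bins: in 100% of peaks it gave whole reads (tolerance 0.02). Each peak has a deposited p-value, below 0.01 throughout, and its correction for multiple testing is not stated. Column 8 as deposited is an unnamed score. The depth of the libraries outside peaks is unknown.

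Coordinates count from 1. Gene spans were taken from RefSeq (GRCh38.p14) and gene starts and strands from its promoter table; a peak counted for a gene at 1 base of overlap, strand ignored. Peaks were ranked by reads per bin within a list. Python 3.11.15, pandas 2.3.3, SciPy 1.17.1 and matplotlib 3.10.9 were used, and the merging of peaks was tested on simulated data. The members and gene lists were chosen with earlier results of these data known. The text gives the peaks of the 6 members, singly or by their range, and the genes of the other lists with a peak, apart from 2 that are not reported here. No test was run between probe sets, because each had 1 library. Alternatives were a p-value limit of 0.001, peaks without the fixed score, equal list lengths, other gene assignment and other overlap rules.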

Additional observations from a re-analysis of the deposited data

How the results depend on the processing

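With a p-value under 0.001, the 6 genes kept 1 even, 1 odd and 6 LacZ peaks, with 0 genes recovered with both ZNF609 probe sets and missing from LacZ, 0 places shared by even and odd without LacZ and 0 places shared with LacZ. The even peak was that of MYO18B, the odd peak was in MYH9, and 5 of the LacZ peaks were in MYH9 and 1 in MYO18A. In lists trimmed to 502 peaks, 8 LacZ peaks were left, all in MYH9. MYH10 and MYO10 were then the 2 genes recovered with both ZNF609 probe sets and missing from LacZ, with 2 places shared by even and odd without LacZ and 2 shared with LacZ. Without the weakest 5% of LacZ peaks these were 2 genes and 2 places. When peaks within 200 bases were joined, 0 places were shared by even and odd without LacZ, since the MYO10 places 170 bases apart became 1. Without MYH9, 7 odd and 6 LacZ peaks and 1 place shared with LacZ remained. The other 28 of 44 recomputed counts stayed within 1.5 times the reported count, among them those with spans extended by 1000 bases. Giving each peak to its best-overlapping gene moved no count, but the MYH10 peaks inside LOC102724262 overlap both genes in full, so that setting could not separate them. Ranked by p-value, the best peak of a gene stood closer to the top in 7 of 13 cases and farther in 5. No paired analysis was possible because each probe set had 1 library and the labels give no replicate numbers. The unknown depth outside peaks means that a gene with 0 peaks is not shown to be uncaptured.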

Other observations

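At identical myosin peaks, the deposited score in column 8, which has no stated meaning, went with the place and not with the library. In the 7 pairs of such peaks from different lists, the score was the same in 7. The pairs came only from chr22:36293301-36293810 and chr22:36294151-36294320 in MYH9 and chr5:16702501-16702670 in MYO10, so they are not separate cases. Peaks of MYH9 had scores from 0.00323 to 0.016 with a median of 0.00598 over 15 peaks, beside list medians of 0.002819 (even), 0.002387 (odd) and 0.00406 (LacZ). MYO10 peaks were at the low end, with a median of 0.000226 over 5 peaks, and MYO18A peaks had a median of 0.000789 over 6. The 2 MYO18B peaks had 0.00331 and the fixed 0.01. The part of this score in the calls was not tested.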
